A study of Mus musculus with 6 samples.

Results

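Tight junction transcripts were followed in mouse tongues carrying chemically induced tumours. The genes are 9 of the 24067 in the count table: Cldn1, Cldn3, Cldn4, Cldn7, Cldn8, Cldn12, Cldn23, Ocln and Tjp1. They were taken by symbol as epithelial claudins, occludin and the ZO family, with the difference between the groups already known, so their values in this comparison are a description and carry no test. Each library is the whole tongue with its tumour from a C57BL/6 mouse about 34 weeks old. There were 3 libraries labelled HuR knockout (KO) and 3 labelled wild type (WT), and every mouse had received 4-nitroquinoline 1-oxide (4NQO), a DNA-damaging carcinogen, for 16 weeks and was then kept for 12 weeks. HuR, encoded by Elavl1, is a protein that binds AU-rich stretches of messenger RNA. The allele, promoter or cell type behind the knockout is not given in the sources used here.

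Tight junctions seal the space between neighbouring epithelial cells near their apical side. Claudins are the membrane proteins that form the sealing strands, and the mix of claudins sets how tight the seal is and which ions pass. Occludin sits in the same strands, and ZO proteins are cytoplasmic scaffolds that bind the tails of claudins and occludin and tie them to actin. In stratified epithelium such as that of the tongue, functional tight junctions form in the upper, differentiated layers, while several claudins are also made below them.

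Library totals ranged from 29543352 to 51520707 counts, so 1 CPM (counts per 1e+06 of the adjusted library size) stands for 25.6 to 53.0 counts. Where the 3 libraries of a label are given singly, they follow their replicate numbers. Elavl1 was not lower under the KO label, at 65.0, 59.3 and 78.4 CPM, against 61.7, 55.8 and 48.0 CPM under the WT label. The libraries are therefore spoken of only by their labels. By Xist and the Y-linked genes KO replicates 2 and 3 were female and the other 4 animals male. The libraries also differed in tissue make-up. The mean of 12 pan-epithelial genes was 8.33 to 8.51 log2 CPM in the libraries labelled KO and 7.14 to 7.98 log2 CPM in those labelled WT, while 15 fast muscle genes summed to 43134 to 60768 CPM under the KO label and 76576 to 141148 CPM under the WT label. The part of these differences in the results was not tested beyond the fits given below. In bulk tissue, fewer cells of a type and less RNA per cell cannot be told apart. Nothing in the labels says how the replicates arose, so p-values below measure the spread between these samples.

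Promoters are shown for Cldn4 and Ocln, the members whose labels lay farthest apart for their spread, and for Cldn3, the neighbour of Cldn4, which was almost silent. They are the 250 bases before the start site in RefSeq, build GRCm38.p6, 5′ to 3′ on the gene's strand. Capitals mark matches on either strand to the AP-1 letters TGANTCA, the Snail E-box CACCTG or the Sp1 GC box GGGCGG.
Cldn4 promoter, chr5:134946935-134947184, minus strand: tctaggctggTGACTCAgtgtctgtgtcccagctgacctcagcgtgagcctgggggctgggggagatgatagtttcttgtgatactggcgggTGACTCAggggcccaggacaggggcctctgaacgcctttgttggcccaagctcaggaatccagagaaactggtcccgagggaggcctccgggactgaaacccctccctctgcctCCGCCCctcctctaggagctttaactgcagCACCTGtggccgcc
Cldn3 promoter, chr5:134985964-134986213, plus strand: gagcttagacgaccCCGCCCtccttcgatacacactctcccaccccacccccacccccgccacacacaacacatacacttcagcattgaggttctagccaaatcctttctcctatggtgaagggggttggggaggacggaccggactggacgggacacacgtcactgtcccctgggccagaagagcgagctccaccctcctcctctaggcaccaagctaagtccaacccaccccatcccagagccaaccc
Ocln promoter, chr13:100552719-100552968, minus strand: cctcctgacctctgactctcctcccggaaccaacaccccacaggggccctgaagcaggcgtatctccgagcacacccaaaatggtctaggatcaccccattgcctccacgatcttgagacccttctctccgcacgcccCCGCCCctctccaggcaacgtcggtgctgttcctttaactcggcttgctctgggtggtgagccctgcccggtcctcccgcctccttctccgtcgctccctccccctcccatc

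The Cldn4 window held 2 AP-1 matches, starting 240 and 158 bases before the start site, with an E-box at 14 and a GC box at 44 bases. Of 27025 promoters of the same length, 6.85% held at least 1 AP-1 match and 0.329% held 2 or more. The E-box occurred in 17.1% and the GC box in 33.0%. In the Cldn3 and Ocln windows there was 1 GC box each and no other match. A grainyhead core, ACCGGTT, occurred in 0.803% of promoters, and a TATA box, TATAAA, in 13.0%. Neither was found in the windows of the 7 members with an entry in the RefSeq table. The promoters of Cldn8 and Cldn23 are not shown. A match of letters is a description and does not show that a factor binds there.

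Because HuR binds AU-rich RNA, the 3′ untranslated regions were searched for ATTTA, the pentamer at the core of AU-rich elements, in the longest annotated form of each gene (GENCODE M21, GRCm38). Ocln had 7 ATTTA in 2307 bases and Cldn23 had 4 in 730 bases. Cldn8, Cldn12 and Tjp1 had 4 each, in 1530, 2676 and 1408 bases. There were 3 in the 2396 bases of Cldn1 and 1 in the 994 bases of Cldn4, while Cldn3 and Cldn7 had 0 in 368 and 168 bases. Of 14346 tested genes, 68.6% held at least 1 ATTTA and 37.1% held 3 or more. Per kilobase, Cldn23 at 5.48 lay above 95.2% of genes and Ocln at 3.03 above 81.0%, and Cldn4 at 1.01 lay under the median of 1.25. The longer form TTATTTAT was found in Cldn23 alone among the members and in 13.9% of all genes. For Ocln the 27 bases that held the most ATTTA are shown, with the pentamer in capitals. No 27 bases of Cldn23 held more than 1, so those around its TTATTTAT are shown.
Ocln, chr13:100497979-100498005, minus strand: aATTTAagaattgtaaatatatATTTA
Cldn23, chr8:35824737-35824763, minus strand: gtatatatcttATTTAtaaataaaaat

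Cldn4 and Ocln stood well apart between the labels, and Cldn1, Cldn7, Cldn23 and Tjp1 were higher under the KO label by smaller or less even margins. Cldn8 and Cldn12 differed between the labels by less than the SE of the difference, and Cldn3 was near the limit of detection. Of the 9 genes, 8 had enough counts to be fitted, all 8 fold changes were above 0, and the median log2 fold change of labelled KO over labelled WT was 0.81, beside 0.02 over all 15903 genes tested. In the fit across all genes, Cldn4 and Ocln were 2 of the 765 genes higher under the KO label at an adjusted p under 0.05, a background of 4.81% of genes (edgeR's quasi-likelihood test, Benjamini-Hochberg). In 5 of the 8 the groups did not overlap, where 22.0% of all genes were higher and 22.1% lower without overlap. The members were chosen on this contrast, so neither count is evidence about them.

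**Figure D1:**
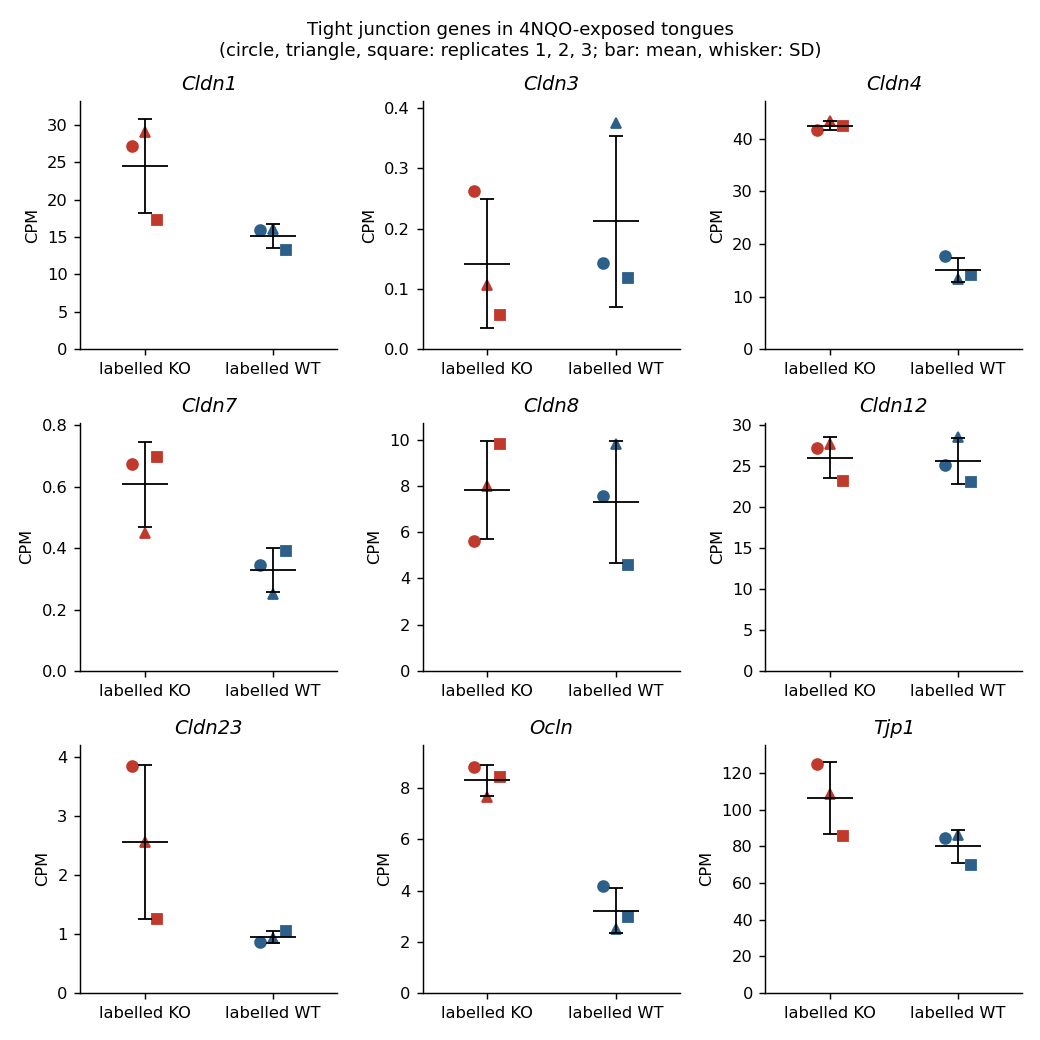
Level of each of the 9 genes in CPM (vertical axes, each from 0) in the 3 libraries labelled KO and the 3 labelled WT. Points are libraries, horizontal bars the mean and whiskers the SD. The groups lie far apart for Cldn4 and Ocln, and overlap for Cldn3, Cldn8, Cldn12 and Tjp1. For Cldn1 KO replicate 3 lies below the other KO libraries, and for Cldn23 all the KO libraries are spread.

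Cldn4 encodes a claudin of many epithelia and, with claudin-3, is a receptor for the enterotoxin of Clostridium perfringens. The gene (identifier 12740) lies on chromosome 5, 134945123 to 134946934 in GRCm38. It stood at 41.7, 43.4 and 42.4 CPM under the KO label, against 17.6, 13.3 and 14.1 CPM under the WT label. Every library labelled KO was more than 20 CPM above every library labelled WT, and the KO libraries differed from each other by under 2 CPM. The means were 42.5 ± 0.876 CPM under the KO label and 15.0 ± 2.30 CPM under the WT label (SD, n = 3 each, as for later values with an SD), a log2 fold change of 1.50 ± 0.14 (SE) or 2.83-fold. In the authors' deposited table the log2 ratio, there given as WT over KO, was -1.44 with a standard error of 0.15.

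Ocln encodes occludin, the first membrane protein found in tight junction strands, and lies on chromosome 13, 100496504 to 100552718 (identifier 18260). It stood at 8.83, 7.64 and 8.45 CPM under the KO label, against 4.19, 2.48 and 2.97 CPM under the WT label. The groups did not overlap, and WT replicate 1, the WT library with the most epithelial transcripts, was the highest of its group. The log2 fold change was 1.37 ± 0.23 (SE), or 2.59-fold. With sex as a term of the fit, which rests on the single male under the KO label, the log2 fold changes were 1.47 ± 0.20 for Cldn4 and 1.46 ± 0.32 for Ocln. In the same fit Cldn23 was at 2.02 ± 0.43 and Tjp1 at 0.64 ± 0.21, against 1.43 and 0.41 without the term, and Cldn8 turned to -0.39 ± 0.42, against 0.09.

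Cldn1 encodes the claudin without which newborn mice die of water loss through the skin. Its gene (identifier 12737) lies on chromosome 16, 26356645 to 26371839. It stood at 27.1, 29.0 and 17.3 CPM under the KO label, against 16.0, 16.1 and 13.3 CPM under the WT label. KO replicate 3 was only just above the highest WT library, and the log2 fold change of 0.69 ± 0.21 was 0.89 without it and 0.55 without KO replicate 2.

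Cldn23 (identifier 71908, chromosome 8, 35824709 to 35826559) was at a lower level and, like Cldn1, had its lowest KO value in replicate 3. It stood at 3.86, 2.57 and 1.25 CPM under the KO label, from 177, 97 and 66 counts, against 0.860, 0.938 and 1.06 CPM under the WT label, from 30, 45 and 27 counts. The groups did not overlap, but KO replicate 3 lay within 0.2 CPM of WT replicate 3. Its log2 fold change of 1.43 ± 0.41 ranged from 1.00 without KO replicate 1 to 1.76 without KO replicate 3.

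Tjp1 encodes ZO-1, the first of the ZO scaffolds to be described, and is the most abundant member in CPM (identifier 21872, chromosome 7, 65296165 to 65527850). It stood at 125, 109 and 85.8 CPM under the KO label, against 84.6, 86.1 and 69.7 CPM under the WT label. The groups overlapped, since KO replicate 3 lay just under WT replicate 2. The log2 fold change was 0.41 ± 0.16, and it was 0.28 without KO replicate 1 and 0.54 without KO replicate 3. Cldn1, Cldn23 and Tjp1 thus had their lowest KO value in the same library, KO replicate 3. It also had the lowest pan-epithelial mean in log2 CPM and the highest muscle sum of its group. By summed CPM of the same epithelial genes KO replicate 1 was lowest, at 12766, against 13891 in KO replicate 3. Basal keratinocyte genes summed highest in KO replicate 3 (15661 CPM) and suprabasal ones lowest (30519 CPM). The part of tissue make-up in these values was not tested.

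Cldn7, a claudin of simple and ductal epithelia that binds EpCAM, was rare in these tongues. It stood at 0.676, 0.450 and 0.698 CPM under the KO label, from 31, 17 and 37 counts, against 0.344, 0.250 and 0.391 CPM under the WT label, from 12, 12 and 10 counts. The groups did not overlap, and the log2 fold change was 0.92 ± 0.35 at counts where sampling adds to the error. Cldn3 had 12, 4 and 3 counts under the KO label, against 5, 18 and 3 counts under the WT label. It did not pass the filter on low counts, no fold change is given, and a difference was not detectable at this depth.

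Cldn8, which in kidney ducts limits the passage of cations, stood at 5.60, 7.99 and 9.83 CPM under the KO label, against 7.57, 9.82 and 4.57 CPM under the WT label. The groups overlapped throughout and the log2 fold change was 0.09 ± 0.31. Cldn12, a widely expressed claudin that lacks the usual PDZ-binding tail, stood at 27.2, 27.6 and 23.1 CPM under the KO label, against 25.1, 28.5 and 23.1 CPM under the WT label. Its log2 fold change was 0.02 ± 0.14, the smallest of the members in size and error. Leaving out single libraries moved it between -0.05 and 0.10, and moved that of Cldn8 between -0.16 and 0.36.

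Since the libraries labelled KO held more epithelial transcripts, each member was also set against the mean of 12 pan-epithelial genes (Krt5, Krt14, Perp, Sfn, Esrp1, Esrp2, Rab25, Spint1, Spint2, Ap1m2, St14 and Prom2), which was itself higher by 0.88 on the log2 scale. On that scale Cldn4 alone stayed higher without overlap. It lay at -3.03, -3.07 and -2.92 log2 units from the epithelial mean under the KO label, against -3.84, -3.75 and -3.31 under the WT label, a difference of 0.63. Ocln differed by 0.51 with overlap, between KO replicate 2 at -5.57 and WT replicate 3 at -5.54, and Cldn23 by 0.37 with wide overlap. Cldn7 (-0.08) and Cldn1 (-0.22) differed by less than 0.3 from what the epithelial genes did. Tjp1 (-0.48) and Cldn8 (-0.76) were lower with overlap and Cldn12 (-0.86) was lower without overlap. The median of the 8 was -0.15, against 0.81 in plain CPM, so the direction of the median depends on this scaling. For comparison Cdh1, the cadherin of epithelial adherens junctions, differed by -0.03 on the same scale.

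**Figure D2:**
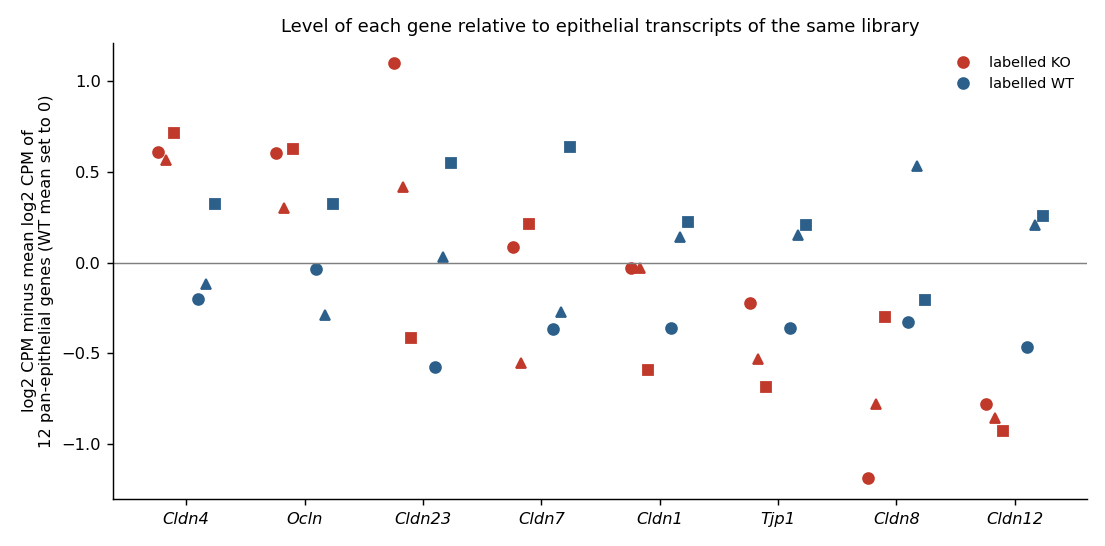
Log2 CPM of each of the 8 fitted genes minus the mean log2 CPM of 12 pan-epithelial genes in the same library (vertical axis, shifted so that the WT mean of each gene is 0), with circles, triangles and squares for replicates 1, 2 and 3. Cldn4 lies higher under the KO label in every library, Cldn12 lower in every library, and the other 6 overlap.

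Among the libraries labelled WT the epithelial mean was 7.98, 7.49 and 7.14 log2 CPM. Cldn4 and Ocln were highest in replicate 1, which had the highest mean, and lowest in replicate 2. With the pan-epithelial mean as a term of the fit in place of the scaling, the log2 fold change was 1.16 ± 0.23 for Cldn4, 0.88 ± 0.40 for Ocln and 1.51 ± 0.93 for Cldn23. For Cldn1 it was 0.29 ± 0.40 and for Tjp1 0.09 ± 0.29. With the mean of the muscle genes as the term it was 1.24 ± 0.22 for Cldn4 and 0.93 ± 0.35 for Ocln, but 0.15 ± 0.34 for Cldn1, 0.41 ± 0.79 for Cldn23 and -0.03 ± 0.24 for Tjp1. Each of these fits spends 1 of the few degrees of freedom on a mean that differs between the labels. Markers of epithelial layers and of other epithelia were also examined. Of 16 suprabasal keratinocyte genes, which mark the differentiated layers, all 16 had fold changes above 0, beside 8156 of all 15903 genes. By edgeR 6 of them (37.5%) rose, beside 4.81% of all genes, and their median log2 fold change was 1.12. The suprabasal genes summed to 42746, 42037 and 30519 CPM under the KO label, against 22992, 25874 and 17347 CPM under the WT label, with KO replicate 3 again the lowest of its label. Of 10 basal keratinocyte genes, 9 had fold changes above 0 and the median was 0.63. By edgeR 0 of these were called, with 4 higher and 1 lower by the unadjusted p. Salivary gland genes summed to 169 to 179 CPM under the KO label and 183 to 248 CPM under the WT label, most of it Slc12a2 and Amy1, and 4 of the 18 (Dcpp1, Dcpp2, Dcpp3 and Cst10) were at 0 in every library. The mean log2 CPM of the 10 salivary genes with enough counts ran the other way, at 1.30, 1.33 and 1.11 under the KO label, against 0.78, 0.67 and -0.20 under the WT label. Of their fold changes 5 were above 0 and 5 below, with a median log2 value of 0.19. The largest were those of Ltf (3.66 ± 0.48) and Lpo (2.77 ± 1.12), with 12, 14 and 5 and with 57, 2 and 0 counts under the WT label. Among the 10 only Ltf, the lactoferrin gene, rose, to 1.77, 5.29 and 3.79 CPM under the KO label, against 0.344, 0.292 and 0.195 CPM under the WT label (edgeR adjusted p = 0.0295). Genes of simple epithelium and ducts summed to 23.3 to 32.0 CPM under the KO label and 10.8 to 14.2 CPM under the WT label. All 6 with enough counts had fold changes above 0. Slc26a4 rose (3.27 ± 0.61, edgeR adjusted p = 0.0325) at low counts, 53, 33 and 37 under the KO label and 6, 4 and 0 under the WT label. Sox9 was higher without overlap (1.44 ± 0.41, edgeR adjusted p = 0.0553). The keratin genes Krt18 (1.24 ± 0.49), Krt8 (1.82 ± 0.75), Krt7 (0.93 ± 0.55) and Krt19 (0.07 ± 0.26) overlapped. Foxi1, Ascl3 and Cftr had at most 3 counts in any library. The part of these cells in the claudin values was not tested.

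Levels of different genes were compared per kilobase of annotated exon, without the row named Cldn25, which has no gene identifier and therefore no length here and had more CPM than any other claudin row. Among the rest Cldn4 ranked first under the KO label, at 23.4 ± 0.483 CPM per kb, and was at 8.27 ± 1.27 CPM per kb under the WT label (SD, n = 3 each), where Cldn5, the claudin of blood vessel endothelium, was first (8.31 ± 0.275 CPM per kb under the KO label and 13.3 ± 4.21 CPM per kb under the WT label). Cldn17 followed under the KO label (10.4 ± 3.42 under the KO label and 3.40 ± 0.460 under the WT label), and its range there overlapped with those of Cldn5, Cldn1 (7.55 ± 1.93 under the KO label and 4.66 ± 0.483 under the WT label) and Cldn12 (6.60 ± 0.629 under the KO label and 6.50 ± 0.698 under the WT label). Of the other claudins among the members, Cldn8 stood highest (3.31 ± 0.900 under the KO label and 3.11 ± 1.12 under the WT label), then Cldn23 (1.38 ± 0.707 under the KO label and 0.515 ± 0.0532 under the WT label), Cldn7 (0.412 ± 0.0930 under the KO label and 0.222 ± 0.0485 under the WT label) and Cldn3 (0.112 ± 0.0849 under the KO label and 0.168 ± 0.113 under the WT label). Ocln, at 1.97 ± 0.143 CPM per kb under the KO label and 0.761 ± 0.208 CPM per kb under the WT label, was well below ZO-1, at 15.0 ± 2.79 CPM per kb under the KO label and 11.3 ± 1.28 CPM per kb under the WT label.

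Taken as shares of the summed CPM per kb of 23 claudins, again without the row named Cldn25, Cldn4 made up 33.1, 34.3 and 39.2% under the KO label, against 22.0, 16.0 and 15.9% under the WT label. Cldn12 made up 9.85 to 10.1% under the KO label and 12.0 to 15.8% under the WT label. Cldn1 made up 8.96 to 12.8% under the KO label and 8.39 to 11.1% under the WT label. Cldn5 held 11.5 to 14.1% under the KO label and 23.5 to 37.0% under the WT label. The claudin pool of the libraries labelled KO was thus weighted to Cldn4 and that of the libraries labelled WT to Cldn5, and the shares of Cldn1 overlapped. The pool itself summed to 59.6 to 69.7 CPM per kb under the KO label and 44.2 to 48.9 CPM per kb under the WT label.

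**Figure D3:**
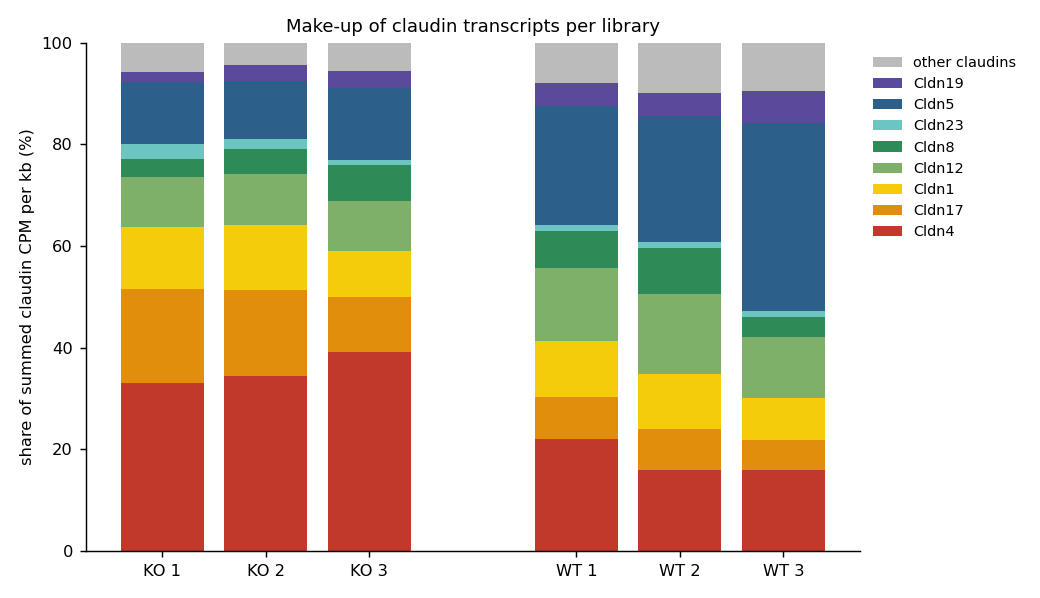
Share of each claudin in the summed CPM per kb of 23 claudins, without the row named Cldn25 (vertical axis, percent), for the 3 libraries labelled KO and the 3 labelled WT. The Cldn4 segment is at least 33.1% in the libraries labelled KO and at most 22.0% in those labelled WT, and the Cldn5 segment is larger in all 3 libraries labelled WT.

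Several members lie beside another junction gene. Of the coding neighbours with enough counts, other than members, Cldn17 rose, Slc2a4 and Tarsl2 fell, and the others did not pass the test. Cldn3 begins 39.3 kb from Cldn4 and held 45 counts over the 6 libraries, and the other flank of Cldn4 holds Mettl27 (named Wbscr27 in the table) 2.49 kb away, at 9.54, 11.5 and 7.10 CPM under the KO label and 9.35, 9.40 and 14.3 CPM under the WT label (log2 fold change -0.23, edgeR adjusted p = 0.494). Beside Ocln, at a distance of 43.2 kb, lies Marveld2, which encodes tricellulin, the relative of occludin found where 3 cells meet. It stood at 7.41, 7.88 and 6.59 CPM under the KO label, against 6.22, 6.50 and 7.23 CPM under the WT label (edgeR adjusted p = 0.554), with overlapping groups. On the other side of Ocln, Gtf2h2, a subunit of a general transcription factor, was at 14.5 ± 0.170 CPM under the KO label and 17.1 ± 0.162 CPM under the WT label without overlap (edgeR adjusted p = 0.180). Slc2a4, beside Cldn7, encodes the glucose transporter of muscle and fat and stood at 305 ± 44.8 CPM under the KO label and 632 ± 178 CPM under the WT label (-1.05 ± 0.24, edgeR adjusted p = 0.0381). Tarsl2, beside Tjp1, encodes a threonyl-tRNA synthetase and stood at 40.0 ± 8.11 CPM under the KO label and 77.4 ± 23.6 CPM under the WT label (-0.95 ± 0.24, edgeR adjusted p = 0.0454). Both had their order of libraries opposite to the epithelial mean within the WT label and the same as the muscle sums given above. The neighbour of Cldn8, 53.8 kb away, is Cldn17, which did differ and is described below. Cldn16, beside Cldn1, had no count in any library.

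Genes of the pathway outside the 9 were taken from lists of 18 other claudins, 18 other membrane proteins and 31 scaffolds and partners present in the table. Of the 57 with enough counts, 7 rose and 7 fell under the KO label (24.6% in either direction, beside 12.2% of all genes, of which 4.81% were higher and 7.43% lower), with a median log2 fold change of -0.05. At an unadjusted p under 0.05 there were 16 higher and 14 lower, beside 38.5% of all genes in either direction, 18.2% higher and 20.3% lower. Of the 14 genes called, epithelial genes such as Crb3 and F11r were among those that rose, and those that fell included Jam2, known from endothelium, and Bves and Popdc3, known from muscle. The counts moved with each library left out. There were 17 higher and 12 lower without WT replicate 1, 3 and 2 without WT replicate 3, 1 and 0 without KO replicate 3 (20 and 13 at an unadjusted p under 0.05), and 0 and 0 without KO replicate 1, KO replicate 2 or WT replicate 2 (13 and 11, 15 and 10, and 12 and 12 by the unadjusted p). With sex, the epithelial mean or the muscle mean as a term, edgeR called 0 of them (14 and 8, 0 and 0, and 1 and 0 by the unadjusted p).

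Among the 9 other claudins tested, Cldn17 rose and 0 fell by edgeR, with 3 lower by the unadjusted p and 1 lower by DESeq2. Cldn17, which forms anion-selective pores in cultured kidney cells, stood at 15.0, 13.8 and 7.57 CPM under the KO label, against 4.27, 4.32 and 3.36 CPM under the WT label (log2 fold change 1.60 ± 0.27, edgeR adjusted p = 0.0315). Its lowest KO library was again replicate 3, as for Cldn1 and Cldn23, and against the epithelial mean it differed by 0.67 with overlap. Cldn5 stood at 12.1, 11.3 and 11.9 CPM under the KO label, against 14.7, 16.1 and 25.6 CPM under the WT label (-0.67 ± 0.22, edgeR adjusted p = 0.0693), and 10 endothelial marker genes summed to 423 to 501 CPM under the KO label and 583 to 750 CPM under the WT label. Cldn19, a claudin of Schwann cells and kidney, was at 7.79 ± 1.70 CPM under the KO label and 10.1 ± 2.68 CPM under the WT label (-0.37 ± 0.24, edgeR adjusted p = 0.277), and 8 Schwann cell marker genes summed to 277 to 338 CPM under the KO label and 385 to 546 CPM under the WT label. Other pore-forming claudins were at lower levels. Cldn2 was at 1.65 ± 0.425 CPM under the KO label and 3.02 ± 1.19 CPM under the WT label (-0.85 ± 0.34, edgeR adjusted p = 0.106), Cldn10 at 1.68 ± 0.638 CPM under the KO label and 1.68 ± 0.387 CPM under the WT label (-0.01 ± 0.35) and Cldn15 at 1.67 ± 0.243 CPM under the KO label and 1.28 ± 0.177 CPM under the WT label (0.38 ± 0.25). A row named Cldn25, which carries no gene identifier, was at 75.6 ± 2.86 CPM under the KO label and 55.5 ± 7.02 CPM under the WT label (0.44 ± 0.13, edgeR adjusted p = 0.0533), and it is not clear which gene it counts.

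Of 17 other membrane proteins tested, 3 rose and 3 fell. F11r, which encodes the junctional adhesion molecule JAM-A, stood at 134, 132 and 127 CPM under the KO label, against 104, 96.4 and 82.5 CPM under the WT label (0.47 ± 0.12, edgeR adjusted p = 0.0462). Its direction turned against the epithelial mean, where it differed by -0.40 without overlap. The apical polarity protein gene Crb3 rose to 15.5 ± 0.395 CPM under the KO label, against 7.93 ± 2.46 CPM under the WT label (0.96 ± 0.22). The endothelial adhesion molecule gene Jam2 fell to 38.3 ± 2.67 CPM under the KO label, against 57.8 ± 8.09 CPM under the WT label (-0.59 ± 0.13). The Popeye-domain genes of muscle also fell, Bves by 0.99 and Popdc3 by 0.63 on the log2 scale. The falls of Jam2, Bves and Popdc3 stood beside the lower endothelial and muscle sums of the same libraries, and the part of those cells in them was not tested. Lsr, which places tricellulin at corners between cells, was at 43.3, 48.8 and 49.1 CPM under the KO label and 38.9, 21.7 and 18.5 CPM under the WT label (0.84 ± 0.26, edgeR adjusted p = 0.0647), and Cxadr, the coxsackie and adenovirus receptor, at 51.2, 42.0 and 45.5 CPM under the KO label and 36.6, 22.4 and 14.9 CPM under the WT label (0.91 ± 0.29, edgeR adjusted p = 0.0680).

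Of 31 scaffolds and partners, 3 rose and 4 fell. Tjp3, encoding the scaffold ZO-3, was at 18.0 ± 3.30 CPM under the KO label and 13.8 ± 2.85 CPM under the WT label. The groups overlapped (0.38 ± 0.20, edgeR adjusted p = 0.186). Its direction turned against the epithelial mean, where it differed by -0.49 without overlap, beside -0.48 with overlap for Tjp1. Pard6b, a subunit of the apical polarity complex, rose to 7.49 ± 0.472 CPM under the KO label, against 3.77 ± 0.460 CPM under the WT label (0.99 ± 0.17). Those that fell were Mpdz (-1.32 ± 0.23), a multi-PDZ scaffold also known as MUPP1, the angiomotins Amot (-0.93 ± 0.23) and Amotl1 (-0.93 ± 0.21), and the polarity gene Pard3b (-0.86 ± 0.20). Inadl (0.66), which encodes the polarity scaffold PATJ, also rose and lies outside the rule for named genes.

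**Figure D4:**
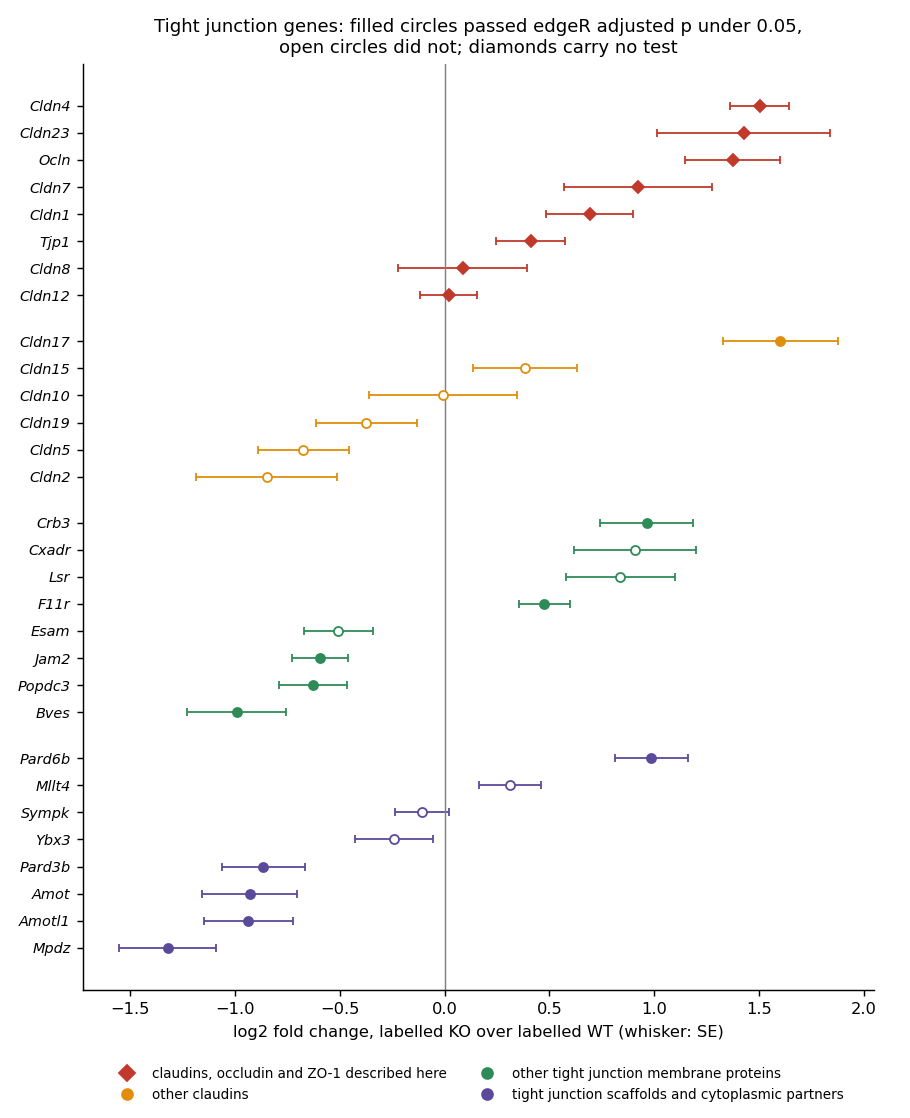
Log2 fold change of labelled KO over labelled WT with its SE for the 8 fitted genes (diamonds, no test) and for named genes of the 3 other tight junction lists (circles, filled where the edgeR adjusted p was under 0.05). Cldn4, Cldn23, Ocln and Cldn17 lie between 1.37 and 1.60, and Mpdz is lowest at -1.32.

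Adherens junction genes and transcription factors known to act on claudins gave a setting for these values. Of 12 adherens junction genes, 2 rose and 0 fell by edgeR (9 and 0 by the unadjusted p, 7 and 0 by DESeq2), and the median log2 fold change was 0.53. These were Pvrl4 (0.96 ± 0.20), the nectin-4 gene, and Plekha7 (0.51 ± 0.14). Of 16 transcription factors tested, 6 rose and 1 fell, and the median was 0.71. Over all genes 4.81% were higher and 7.43% lower by edgeR, and 18.2% and 20.3% by the unadjusted p. The grainyhead factors Grhl3 (149 ± 18.1 CPM under the KO label and 69.7 ± 7.40 CPM under the WT label) and Grhl1 (log2 fold change 1.16 ± 0.23) and the epithelial factors Ovol1 (1.34 ± 0.20), Elf3 (1.12 ± 0.24) and Klf4 (1.01 ± 0.21) rose, as did Ehf (1.24), which lies outside the rule for named genes. Zeb1, a repressor of epithelial genes, fell to 28.9 ± 0.955 CPM under the KO label, against 50.3 ± 8.18 CPM under the WT label (-0.80 ± 0.14, edgeR adjusted p = 0.0325). The other Zeb, Twist and Snail genes of the list went both ways and did not pass the test. Zeb2 (-0.44 ± 0.14) and Twist1 (-0.19 ± 0.17) were lower, and Snai2 (0.76 ± 0.31) and Snai1 (0.23 ± 0.29) were higher. The calls in both lists depended on the libraries kept. Without KO replicate 1, KO replicate 2 or WT replicate 2 edgeR called 0 in either list, with 4 to 6 adherens junction genes and 7 or 8 factors higher by the unadjusted p. Without KO replicate 3 and without WT replicate 3 it called 0 adherens junction genes (7 higher each by the unadjusted p), and 1 and 5 factors higher. Without WT replicate 1 it called 9 and 11 higher. With the epithelial mean as a term it called 0 (0 adherens junction genes and 2 factors higher by the unadjusted p), with medians of -0.02 and -0.09.

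How the members varied together was described by Pearson's r of log2 CPM over the 6 libraries, which share the split between the labels. Cldn4 and Ocln had r = 0.98, Cldn1 and Tjp1 0.95, Cldn1 and Cldn23 0.91, and Cldn23 and Tjp1 0.90. Cldn8 had r between -0.27 and 0.29 with each other member. The genes most like Cldn4 among 14222 others of at least 1 CPM were Snrpg and Llph (r = 0.998 and 0.996), those most like Ocln were Tipin and Ngef (0.997 and 0.995), and those most like Tjp1 were Mtmr2 and Mfap3l (0.997 each). For Cldn1 they were Dync2h1 and Sh3yl1 (0.992 each), and for Cldn23 Trp53bp2 and Pir (0.995 and 0.992). Such values were common: 312 genes had r above 0.95 with Cldn4 and 371 with Ocln, but 3 with Cldn8 and 8 with Cldn12. For Cldn8 the nearest were Kcnj10 and Med21 (0.975 and 0.964), and for Cldn12 Slc18a2 and Tagap (0.982 and 0.978). For Cldn7 they were Cenpc1 and Pam16 (0.984 and 0.983), and for Cldn3 Eps15 and Zfp597 (0.987 and 0.981). The patterns of Cldn7 and Cldn3 rest on the low counts given above, where sampling adds to the error. With r above 0.95 there were 22 genes for Cldn7 and 20 for Cldn3.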

How the data were processed

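Libraries were made from total RNA of whole tongue with an Illumina TruSeq RNA kit, per the labels' protocols. The authors deposited 3 tables of raw read counts per gene, 1 with all 6 libraries and 2 with 4 each that repeat its counts. The table of 6 also gives, per the file headers, the authors' own log2 ratio of WT over KO and its error. HTSeq and DESeq2 are named as tools, and mm10 and hg19 as builds, in the submitters' processing notes. No source used here names an aligner, an annotation or a strand setting.

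The test was that of edgeR 4.0.16 (R 4.3.3), on the 15903 of 24067 genes that passed filterByExpr at its default limits (10 counts scaled to library size, 15 in all). Libraries were scaled by TMM and a robust quasi-likelihood model with group as its only term was fitted, with Benjamini-Hochberg adjustment over all genes and a threshold of 0.05. Levels are CPM on the TMM-adjusted library size, log2 CPM used a prior count of 2, and the SE was taken from the fold change and its F statistic (log2 change over the root of F). Exon lengths and untranslated regions came from GENCODE M21, and promoters and coordinates from RefSeq, both for GRCm38. Columns were matched to samples by the identifiers in the labels. The fit was tested on data simulated with a common dispersion. It called 3 of 50 genes changed 1.5-fold, 36 of 50 changed 2-fold and 50 of 50 changed 4-fold, with 10 unchanged genes called. Changes under 2-fold could thus often be missed.

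Sequences were found for 7 of the 9 members among promoters and for all 9 among untranslated regions. The members and the gene lists were chosen with earlier results of these data known. Genes outside the 9 were named by rule: in each list up to 6 past the threshold with the smallest adjusted p and 3 others of the highest mean CPM, every other claudin of at least 1 CPM, the nearest coding neighbours, and the 2 genes most alike in pattern. DESeq2 1.42.0, limma-voom (limma 3.58.1), RLE scaling, no filter, a replicate block, covariates and leaving out each library were the alternatives. Some genes that the rule would name are not reported here.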

Additional observations from a re-analysis of the deposited data

How the results depend on the processing

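Over all genes there were 765 higher and 1181 lower under the KO label by edgeR. DESeq2 called 1909 and 2472 and the replicate block 1705 and 2112, and leaving out single libraries gave 0 to 2906 higher and 0 to 2938 lower. The counts were 4 and 6 when KO replicate 1 was left out, 0 and 0 for KO replicate 2 (1993 and 2334 at an unadjusted p under 0.05), 49 and 3 for KO replicate 3, 2906 and 2938 for WT replicate 1, 0 and 1 for WT replicate 2 (1640 and 2329) and 294 and 437 for WT replicate 3. For the other tight junction genes, 7 higher and 7 lower, DESeq2 called 14 and 11, the replicate block gave 13 higher, and leaving out single libraries gave 0 to 17 higher and 0 to 12 lower. With the pan-epithelial mean, the muscle mean or sex as a term edgeR called 0 in both directions, for all genes (191 and 269, 212 and 222, and 1672 and 1860 at an unadjusted p under 0.05) and for the other tight junction genes (0 and 0, 1 and 0, and 14 and 8). Each such fit has fewer residual degrees of freedom, and the cause of the lost calls was not tested beyond that. The median log2 fold change of the members, 0.81, was 0.40 with the muscle mean as a term and turned to -0.15 relative to the pan-epithelial genes. By construction that scaling removes the epithelial difference of 0.88. The members' median ranged from 0.55 to 0.85 over the fits without single libraries, but not over the same genes. Cldn3 passed the filter and entered the median without KO replicate 2 (0.55), WT replicate 1 (0.75) or WT replicate 3 (0.61). Over the same 8 genes as the 0.81, the median was 0.73 without KO replicate 1, 0.85 without KO replicate 3 and 0.74 without WT replicate 2. Bves turned to 0.0032 with the pan-epithelial mean as a term. Of the members' other values, 100 moved by less than the spread between replicates and 20 by more. Those 20 were 8 relative to the pan-epithelial genes, 5 with the pan-epithelial mean as a term, 5 with the muscle mean and 2 with sex. Deviations of same-numbered libraries correlated at 0.12, -0.16 and 0.19, and 3 of the 6 libraries correlated best with their own number. So few libraries cannot settle whether the replicate numbers pair the animals. Depth limits Cldn3 and Cldn7.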
